A study of Mus musculus with 28 samples.

Results

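The tubulin isotype genes encode the subunits of microtubules. They were followed here in mouse T cells exposed to drugs that block histone deacetylases, which strip acetyl groups off histones and some other proteins, alpha-tubulin among them. The 9 genes were chosen by name: the beta-tubulin genes Tubb2a, Tubb2b, Tubb3, Tubb5 and Tubb6 and the alpha-tubulin genes Tuba1a, Tuba1b, Tuba4a and Tuba8. Each gene was read from its brightest probe set, the one with the highest mean over all arrays, among probe sets that name 1 gene. This gave values for 8 of the 9 genes, among 18193 genes of the array. Tuba1b has only a probe set that it shares with another gene, so no values are given for it. All 8 lay over the detection level of 4.27 log2 units in at least 2 arrays and were among the 9871 genes tested.

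The 28 arrays fall into 14 groups of 2. CD4 and CD8 T cells were taken from mouse spleen by negative selection, a method that removes other cells with antibodies and leaves the wanted ones untouched. All groups, controls included, were stimulated for 2 days with plate-bound anti-CD3 and soluble anti-CD28 antibodies. The cells of each type were then cultured for 1 day without drug (control), with 2, 10 or 30 nM romidepsin, or with 0.5, 2 or 10 µM vorinostat; romidepsin is a cyclic peptide drug and vorinostat a hydroxamic acid. No vehicle is named for the control, and neither the age nor the number of mice is used here. They do not say whether the 2 replicates of a group are separate cultures or animals, so p-values measure the spread between these arrays, which may be technical.

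Microtubules are hollow filaments built from alpha- and beta-tubulin dimers. Mammals have several genes for each subunit. The proteins differ mostly in their C-terminal tails, and their genes are used to different degrees in different tissues. Tubb2a, Tubb2b and Tubb3 are best known from the nervous system, where Tubb3 is a common marker of neurons. Tubb5 and Tubb6 are expressed in many tissues. Tuba1a is abundant in developing neurons, Tuba4a occurs in many tissues, and Tuba8 is the most divergent of the alpha-tubulin genes measured here. In T cells, motor proteins carry cargo along microtubules. Microtubules also move the centrosome towards the contact with a target cell and form the mitotic spindle of dividing cells.

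The 250 bases before the RefSeq start are shown for 3 beta-tubulin genes with different patterns. They are Tubb2a, with a large rise, Tubb3, with signal mainly at the top doses, and Tubb5, with a lower level at the top doses. The sequences come from RefSeq (GRCm38.p6), which gave a promoter for 7 of the 9 genes. They run 5′ to 3′ in the direction of the gene. Tubb2a lies at chr13:34078009-34078258 on the minus strand, Tubb3 at chr8:123411303-123411552 on the plus strand and Tubb5 at chr17:35838302-35838551 on the minus strand. Capitals mark matches on either strand to 4 short motifs: the CCAAT box (CCAAT or ATTGG), the GC box (GGGCGG or CCGCCC), the TATA box (TATAAA or TTTATA) and the cyclic AMP response element (TGACGTCA).
Tubb2a: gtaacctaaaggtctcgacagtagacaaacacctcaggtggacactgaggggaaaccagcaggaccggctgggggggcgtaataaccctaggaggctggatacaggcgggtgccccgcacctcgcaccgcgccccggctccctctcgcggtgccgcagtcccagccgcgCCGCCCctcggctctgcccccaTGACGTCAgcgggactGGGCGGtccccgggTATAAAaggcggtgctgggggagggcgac
Tubb3: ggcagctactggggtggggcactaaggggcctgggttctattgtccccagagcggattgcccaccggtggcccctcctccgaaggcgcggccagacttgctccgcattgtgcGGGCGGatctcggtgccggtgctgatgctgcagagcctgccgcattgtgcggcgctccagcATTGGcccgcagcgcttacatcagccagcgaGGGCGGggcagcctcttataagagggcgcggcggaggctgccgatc
Tubb5: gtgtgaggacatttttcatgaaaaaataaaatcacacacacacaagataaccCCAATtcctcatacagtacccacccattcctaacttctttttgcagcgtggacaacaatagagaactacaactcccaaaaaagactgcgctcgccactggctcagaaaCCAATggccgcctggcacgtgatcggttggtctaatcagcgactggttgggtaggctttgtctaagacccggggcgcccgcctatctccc
The Tubb2a window holds a TATA box that begins 29 bases before the start, a cyclic AMP response element 59 bases before it and 2 GC boxes. The Tubb3 window holds 2 GC boxes and 1 CCAAT box, and the Tubb5 window holds 2 CCAAT boxes, which begin 198 and 90 bases before the start. Over the same 250 bases of 32851 RefSeq promoters, 33.8% held a CCAAT box, 32.7% a GC box, 12.4% a TATA box and 1.55% a cyclic AMP response element. No 2 of these 4 motifs overlapped in the windows shown. A match describes letters and is not a measured binding site, and the arrays measured no binding.

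Several features of the arrays touch every value below. Array medians ran from 2.31 to 2.4 log2 units, and 8446 to 9321 genes lay over the detection level. Cd3e and Cd3g, subunits of the T cell receptor complex, were over the detection level in all 28 arrays. Cd8a lay at 9.34 to 11.99 in the CD8 arrays and 4 to 6.07 in the CD4 arrays. It was over the detection level in 26 of the 28 arrays. Cd8b1 lay at 9.93 to 12.6 in the CD8 arrays and 5.32 to 8.28 in the CD4 arrays, over that level in all 28. Cd4 lay at 2.25 to 2.34 in the CD8 arrays and at 2.39 to 8.55 in the CD4 arrays, and was over the detection level in 11 of those 14. None of 5 myeloid and none of 5 platelet and megakaryocyte markers was over the detection level in any array, and of 3 natural killer cell markers only Tyrobp was, in 1 array. Of 4 B cell markers on the array, Cd79b was over it in 22 arrays, Ms4a1 in 12, Cd22 in 5 and Cd79a in 1. Beta-actin probe sets at the 3′ end exceeded those at the 5′ end, a gap that grows as RNA degrades, by 0.75 to 1.62 log2 units, most in CD4 cells with vorinostat at 10 µM. The 2 replicate numbers of a cell type formed separate sets, so each result was also fitted with that number as a block. The 95% interval of a typical (median) gene extended 0.97 log2 units either way without the block and 0.35 with it.

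Tubb2a and Tubb2b were higher with both drugs in CD4 T cells, by more than any other tubulin gene measured. In CD4 cells with romidepsin at 30 nM, Tubb2b was 4.02 ± 0.6 and Tubb2a 3.69 ± 0.36 log2 units above control (SE, n = 2), or 16.2-fold and 12.9-fold. With vorinostat at 10 µM the differences were 3.84 ± 0.6 for Tubb2b and 3.59 ± 0.36 for Tubb2a, or 14.4-fold and 12-fold. Of the 9871 genes tested in CD4 cells, 38 had a larger difference than Tubb2b and 61 a larger one than Tubb2a with romidepsin at 30 nM. With vorinostat at 10 µM, 31 genes had a larger difference than Tubb2b and 48 a larger one than Tubb2a.

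In CD4 cells, Tubb2a lay at 7.24 and 7.98 log2 units in the control arrays, replicate 1 first. With romidepsin it lay at 8.15 and 8.46 at 2 nM, at 10.78 and 10.26 at 10 nM and at 11.29 and 11.3 at 30 nM. With vorinostat it lay at 8.24 and 8.52 at 0.5 µM, at 9.99 and 9.63 at 2 µM and at 11.35 and 11.04 at 10 µM. Every drug array was above both control arrays, and the arrays of successive doses did not overlap. Tubb2a passed the test against control at 10 nM (2.91 log2 units, adjusted p = 0.00011), 30 nM (adjusted p = 5.02e-06), 2 µM (2.2 log2 units, adjusted p = 0.00468) and 10 µM (adjusted p = 9.68e-06). At the lowest doses the differences were 0.7 and 0.77 log2 units, with an adjusted p of 1 for both, and 0.44 and 0.471 with the block. Without replicate 1 of the control, or of 2 µM vorinostat, the call at 2 µM was lost (1.83 log2 units, adjusted p = 0.135, and 2.02, adjusted p = 0.0884), as it was with the mean of all probe sets of the gene (1.2, adjusted p = 0.231).

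Tubb2b in CD4 cells lay at 6.54 and 6 log2 units in the control arrays. With romidepsin it lay at 8.69 and 7.23 at 2 nM, at 10.75 and 9.65 at 10 nM and at 10.62 and 9.97 at 30 nM. With vorinostat it lay at 8.87 and 7.88 at 0.5 µM, at 10.86 and 9.59 at 2 µM and at 10.35 and 9.89 at 10 µM. No drug array overlapped the control arrays, but the middle and top doses overlapped each other with both drugs. Tubb2b passed the test at 10 nM (3.93 log2 units, adjusted p = 0.00063), 30 nM (adjusted p = 0.000185), 2 µM (3.95 log2 units, adjusted p = 0.00266) and 10 µM (adjusted p = 0.000336). At the lowest doses it was 1.69 and 2.1 log2 units above control, which passed only with the block (adjusted p = 0.0174 at 2 nM and 0.00886 at 0.5 µM). Without replicate 1 of 2 µM vorinostat the call at that dose was lost (3.32 log2 units, adjusted p = 0.0695).

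In CD8 cells both genes stood higher already in the control arrays, and the differences with drug were smaller. Tubb2a lay at 9.72 and 10.82 log2 units in the CD8 control arrays. With romidepsin it lay at 9.92 and 10.6 at 2 nM, at 11.29 and 10.97 at 10 nM and at 12.35 and 11.75 at 30 nM. With vorinostat it lay at 10.42 and 10.53 at 0.5 µM, at 11.86 and 11.33 at 2 µM and at 12.21 and 12.48 at 10 µM. The arrays of the lowest doses overlapped the control arrays and those of the higher doses lay above them. Tubb2a passed the test at 30 nM (1.78 ± 0.36, adjusted p = 0.0043) and 10 µM (2.07 ± 0.36, adjusted p = 0.000778), and at 2 µM only with the block (1.33 ± 0.36, adjusted p = 0.0596 without and 0.00886 with it, and 0.74, adjusted p = 0.103, with the actin gap added). The call at 30 nM was lost without replicate 1 of that group (1.48 log2 units, adjusted p = 0.0773) or of the control (1.23, adjusted p = 0.1), and with the mean of all probe sets of the gene (1.31, adjusted p = 0.0518). The call at 10 µM was lost where the actin 3′ minus 5′ difference joined the block in the fit (0.91, adjusted p = 0.143).

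Tubb2b lay at 9.88 and 10.28 log2 units in the CD8 control arrays. With romidepsin it lay at 10.16 and 9.99 at 2 nM, at 11.45 and 10.77 at 10 nM and at 12.19 and 11.01 at 30 nM. With vorinostat it lay at 11.25 and 10.52 at 0.5 µM, at 11.8 and 10.79 at 2 µM and at 12.16 and 11.46 at 10 µM. At 2 nM the arrays overlapped the control arrays, and at the other doses they lay above them, with replicate 1 above replicate 2. Without the block Tubb2b passed the test at no dose in CD8 cells, with 1.73 ± 0.6 (adjusted p = 0.0519) at 10 µM and 1.52 ± 0.6 (adjusted p = 0.128) at 30 nM. With the block it passed at 10 nM (1.03, adjusted p = 0.0304), 30 nM (adjusted p = 0.000689), 2 µM (1.21, adjusted p = 0.00588) and 10 µM (adjusted p = 0.00015).

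**Figure D1:**
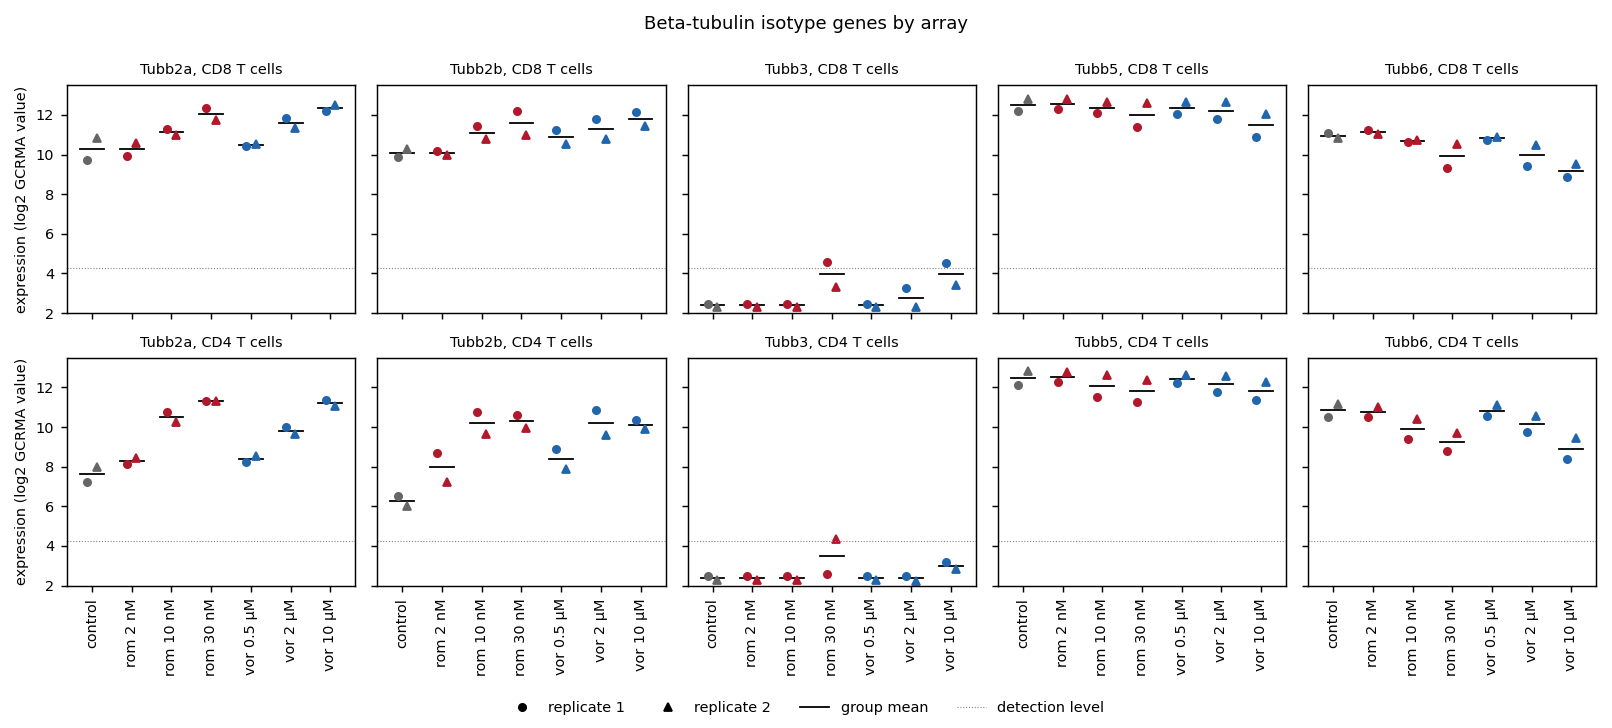
Log2 GCRMA values of the 5 beta-tubulin genes on every array, with CD8 T cells above and CD4 T cells below. The horizontal axis gives the control and each drug from low to high dose (rom, romidepsin; vor, vorinostat), circles are replicate 1, triangles replicate 2, black lines group means and the dotted line the detection level of 4.27. Tubb2a and Tubb2b climb with dose most in CD4 cells, Tubb3 leaves the floor mainly at the top doses, and Tubb6 and Tubb5 lie lower at the top doses.

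Tubb3 was at the floor of the array in the control groups. It lay at 2.48 log2 units in replicate 1 and 2.29 in replicate 2 of both control groups, and its mean was under the detection level in every group. It was over that level in 3 arrays: 4.57 in CD8 cells with romidepsin at 30 nM (replicate 1), 4.52 in CD8 cells with vorinostat at 10 µM (replicate 1) and 4.37 in CD4 cells with romidepsin at 30 nM (replicate 2). The other arrays of these groups lay at 3.33, 3.41 and 2.59, and vorinostat at 10 µM gave 3.17 and 2.84 in CD4 cells. Tubb3 entered the test only through these top-dose arrays, so its calls are no independent support, and no fold is given. It was called in CD8 cells at 10 µM (1.58 ± 0.49 log2 units, adjusted p = 0.0323), and only with the block at 30 nM in CD8 cells (1.56, adjusted p = 0.00516) and CD4 cells (1.1, adjusted p = 0.0297). With the actin gap added, Tubb3 was not called in CD4 cells at 30 nM (1.34, adjusted p = 0.104). The call at 10 µM was lost without replicate 1 or 2 of the CD8 control (adjusted p = 0.104 and 0.137), without replicate 1 of that group (0.319), with no filter on low values (0.0588), with quantile normalization (0.0788), with an intensity trend (0.0598) and in a fit within each cell type (0.0608).

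Tubb6 was lower with both drugs at the top doses. In CD4 cells it lay at 8.8 and 9.7 log2 units with romidepsin at 30 nM and at 8.39 and 9.43 with 10 µM vorinostat, against 10.53 and 11.15 in the control arrays. These drug arrays were all below both control arrays. The differences were -1.59 ± 0.51 log2 units at 30 nM (adjusted p = 0.0343, 3.01-fold lower) and -1.93 ± 0.51 at 10 µM (adjusted p = 0.0134, 3.82-fold lower). At 10 nM the CD4 arrays lay at 9.41 and 10.39, a difference of -0.94 that passed only with the block (adjusted p = 0.0138). At 2 nM (10.52 and 11.03), 0.5 µM (10.54 and 11.09) and 2 µM (9.73 and 10.58) the CD4 arrays overlapped the control arrays.

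In CD8 cells Tubb6 lay at 8.85 and 9.51 log2 units with 10 µM vorinostat, against 11.07 and 10.84 in the control arrays, a difference of -1.78 ± 0.51 (adjusted p = 0.0194, 3.43-fold lower). With romidepsin at 30 nM it lay at 9.31 and 10.52, and with vorinostat at 2 µM at 9.43 and 10.48. In both groups replicate 1 was further from control than replicate 2, and the differences of -1.04 and -1 passed only with the block (adjusted p = 0.00698 and 0.013). At 2 nM (11.23 and 11.03), 10 nM (10.62 and 10.73) and 0.5 µM (10.75 and 10.91) the differences ranged from -0.28 to 0.17 and did not pass either fit. The Tubb6 calls rested on few arrays. In CD4 cells at 30 nM the call was lost without replicate 1 of that group (-1.14, adjusted p = 0.281), without replicate 1 of the control (-1.9, adjusted p = 0.0647) and without replicate 2 of the control (-1.28, adjusted p = 0.193), and also with no filter on low values (adjusted p = 0.0623) and in a fit within each cell type (adjusted p = 0.0734). At 10 µM it was lost in CD4 cells without replicate 2 of the control (-1.63, adjusted p = 0.104) or replicate 1 of the drug group (-1.41, adjusted p = 0.169). In CD8 cells at 10 µM it was lost without replicate 1 of the drug group (-1.45, adjusted p = 0.163), replicate 1 of the control (-1.67, adjusted p = 0.112) or replicate 2 of the control (-1.89, adjusted p = 0.0599).

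The actin 3′ minus 5′ difference moved with the same groups as Tubb6. In replicates 1 and 2 it was 1.55 and 0.97 in CD4 cells with romidepsin at 30 nM and 1.62 and 1.09 with 10 µM vorinostat, against 0.94 and 0.78 in CD4 controls. In CD8 cells it was 1.43 and 1.16 with 10 µM vorinostat, against 0.86 and 0.79 in controls. With this difference as a covariate beside the block, Tubb6 differed from control by -0.77 (adjusted p = 0.0786) and -0.91 (adjusted p = 0.0899) at the top romidepsin and vorinostat doses in CD4 cells and by -0.8 (adjusted p = 0.103) at 10 µM in CD8 cells. The Tubb6 comparisons that passed only with the block were lost in that fit as well: -0.47 (adjusted p = 0.171) in CD4 cells at 10 nM, -0.54 (adjusted p = 0.115) in CD8 cells at 30 nM and -0.51 (adjusted p = 0.151) at 2 µM. In the same fit Tubb2b passed at 30 nM (1.44, adjusted p = 0.00612) and 10 µM (1.57, adjusted p = 0.0263) in CD8 cells.

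Tubb5 differed less. In CD4 cells it lay at 11.26 and 12.35 log2 units with romidepsin at 30 nM and at 11.38 and 12.25 with 10 µM vorinostat, against 12.12 and 12.84 in the control arrays. In CD8 cells it lay at 11.4 and 12.6 at 30 nM and at 10.89 and 12.05 at 10 µM, against 12.2 and 12.8 in the control arrays. Replicate 2 was above replicate 1 in all 14 groups, and of these 4 groups only that of CD8 cells at 10 µM lay below both of its control arrays. Without the block no comparison of Tubb5 with control passed the test. With it Tubb5 differed by -0.67 (adjusted p = 0.00646) and -0.66 (adjusted p = 0.00775) at the top doses in CD4 cells and by -0.49 (adjusted p = 0.0413) and -1.03 (adjusted p = 0.000254) in CD8 cells, romidepsin first. With the actin covariate added, the CD4 difference at 10 µM turned to 0.15 (adjusted p = 0.627) and Tubb5 passed at no dose in either cell type.

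The alpha-tubulin genes changed little. Tuba1a lay at 13.47 and 13.28 log2 units in CD4 cells with romidepsin at 30 nM and at 13.6 and 12.98 with 10 µM vorinostat, against 13.02 and 12.93 in the control arrays. The arrays at 30 nM lay above both control arrays and those at 10 µM overlapped them. Its differences of 0.4 and 0.31 passed only with the block (adjusted p = 0.0117 and 0.0415). With the actin covariate added, Tuba1a differed by 0.27 (adjusted p = 0.265) and 0.15 (adjusted p = 0.636) there. In CD8 cells Tuba1a lay at 14.16 and 13.58 at 30 nM and 14.06 and 13.58 at 10 µM, against 13.96 and 13.34 in the control arrays. These arrays overlapped the control arrays, and the differences of 0.22 and 0.17 did not pass either fit.

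Tuba4a passed no dose comparison in either fit. Its CD4 arrays lay between 11.12 and 12.34 log2 units and its CD8 arrays between 11.84 and 12.7. At the top doses the differences from control were 0.02 ± 0.51 (romidepsin) and 0.06 ± 0.51 (vorinostat) in CD4 cells, and -0.17 ± 0.51 and -0.2 ± 0.51 in CD8 cells. The block left 95% intervals of 0.28 to either side of these values, and 1.08 without it. Tuba8 lay between 2.59 and 3.46 in replicate 1, under the detection level throughout, and between 3.8 and 5.03 in replicate 2, where 12 arrays were over it. Its largest difference at a top dose was -0.73 ± 1.17, in CD4 cells at 10 µM, where the arrays lay at 2.73 and 3.8, against 2.97 and 5.03 in the control arrays; it passed only with the block (adjusted p = 0.025, and 0.223 with the actin covariate added), with replicate 1 under the detection level on both sides.

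**Figure D2:**
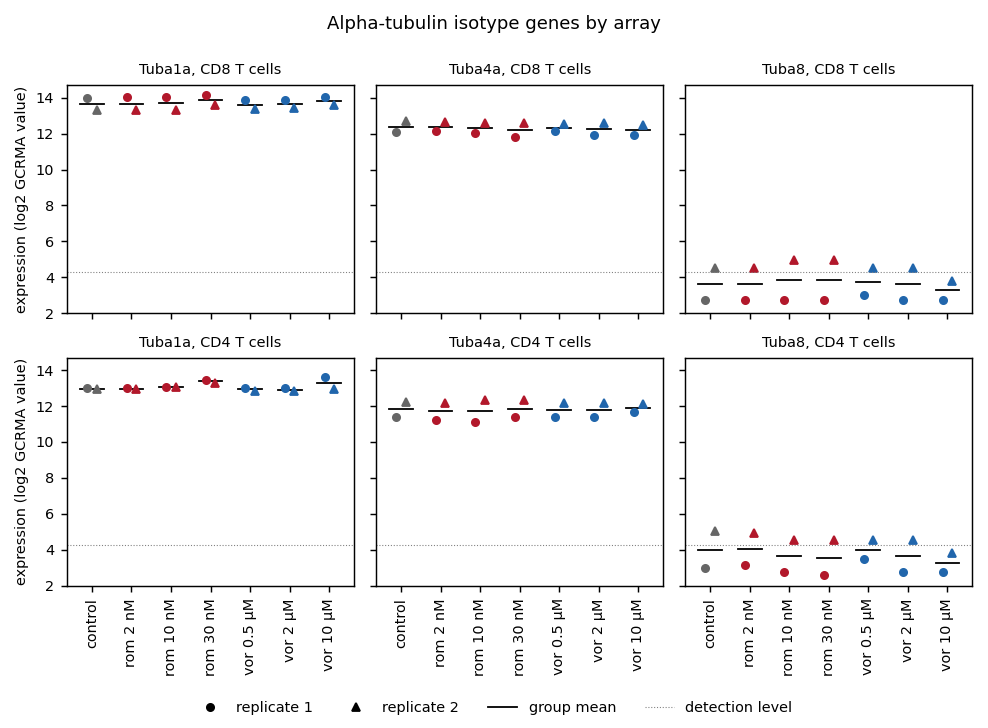
Log2 GCRMA values of the 3 alpha-tubulin genes on every array, CD8 T cells above and CD4 T cells below, with the control and each drug from low to high dose (rom, romidepsin; vor, vorinostat). Circles are replicate 1, triangles replicate 2, black lines group means and the dotted line the detection level. Tuba1a and Tuba4a stay within 12.85 to 14.16 and 11.12 to 12.7 log2 units over all 28 arrays, and Tuba8 is over the detection level only in replicate 2.

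**Figure D3:**
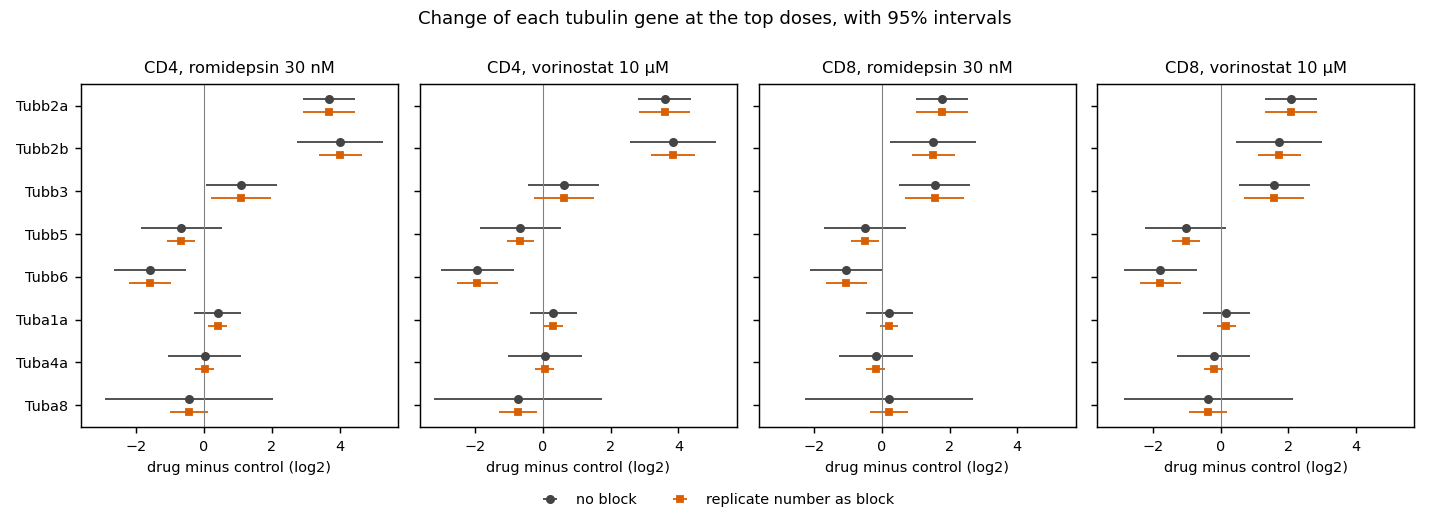
Difference from control of each tubulin gene at the top doses (drug minus control, log2), with 95% intervals from the fit without the block (circles) and from the blocked fit (squares). In CD4 cells Tubb2a and Tubb2b lie furthest to the right, at 3.59 to 4.02. In CD8 cells they lie at 1.52 to 2.07, also furthest to the right except at 30 nM, where Tubb3 (1.56) lies between them. Tubb6 lies furthest to the left, at -1.04 to -1.93.

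Counted over the 8 measured genes, the calls were few at low doses and rose to 3 at most. In CD4 cells with romidepsin, 0 genes were called at 2 nM, 2 higher at 10 nM and 2 higher and 1 lower at 30 nM, beside 0.0304%, 8.64% and 21.2% of all genes tested. With vorinostat in CD4 cells the counts were 0 at 0.5 µM, 2 higher at 2 µM and 2 higher and 1 lower at 10 µM, beside 0.0101%, 1.42% and 18% of all genes. In CD8 cells with romidepsin 0, 0 and 1 (higher) were called, beside 0%, 1.12% and 10.8% of all genes. With vorinostat in CD8 cells 0, 0 and 3 (2 higher, 1 lower) were called, beside 0%, 3.3% and 20.6% of all genes. Where limma called 0 of the 8, an unadjusted p under 0.05 was found for 1 gene at 2 nM and 2 genes at 0.5 µM in CD4 cells, and for 0 genes at 2 nM, 1 at 10 nM, 0 at 0.5 µM and 1 at 2 µM in CD8 cells. The share of all genes under that unadjusted threshold is not given here, so these counts are no result about the tubulin genes. The block raised most counts, of tubulin genes and of all genes. In CD4 cells with romidepsin it gave 1, 3 and 6 tubulin genes, beside 0.922%, 48.2% and 63.7% of all genes, and with vorinostat 1, 2 and 6, beside 0.253%, 28.3% and 61.2%. In CD8 cells it gave 0, 1 and 5 with romidepsin, beside 0%, 17.2% and 52.4% of all genes, and 0, 3 and 5 with vorinostat, beside 1.13%, 36.8% and 64%. The median difference over the 8 genes at the top doses was 0.21 (romidepsin) and 0.19 (vorinostat) log2 units in CD4 cells and 0.22 and -0.02 in CD8 cells, beside 0.07, 0.02, 0.02 and 0 over all genes tested.

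Successive doses were compared within each drug and cell type. In CD4 cells Tubb2a was 2.22 ± 0.36 log2 units higher at 10 nM than at 2 nM romidepsin (adjusted p = 0.00275) and 1.39 ± 0.36 higher at 10 µM than at 2 µM vorinostat (adjusted p = 0.0352). Tubb2b was 2.24 ± 0.6 higher at 10 nM than at 2 nM (adjusted p = 0.0458). These were the 3 calls without the block over 8 steps. All genes were called at 4.28% (10 against 2 nM) and 0.122% (30 against 10 nM) in CD4 cells with romidepsin and at 0.0101% (2 against 0.5 µM) and 5.42% (10 against 2 µM) with vorinostat. In CD8 cells the shares were 0.213% and 0.466% with romidepsin and 0.162% and 4.88% with vorinostat, lower step first. At the upper romidepsin step in CD4 cells the difference was 0.77 ± 0.36 for Tubb2a (adjusted p = 0.87) and 0.1 ± 0.6 for Tubb2b (adjusted p = 1), and at the upper vorinostat step it was -0.11 ± 0.6 for Tubb2b (adjusted p = 1). With the block 12 steps of tubulin genes were called, among them the lower vorinostat step in CD4 cells for Tubb2a (1.43, adjusted p = 0.0325) and Tubb2b (1.86, adjusted p = 0.0072), the upper one for Tubb6 in CD4 cells (-1.25, adjusted p = 0.00298) and the upper one for Tubb5 in CD8 cells (-0.75, adjusted p = 0.00603). No share of all genes is given for the steps with the block or with the actin covariate. These counts therefore stand without a background. With the actin covariate beside the block 4 steps were called. They were the lower romidepsin step in CD4 cells for Tubb2a and Tubb2b, the lower vorinostat step in CD4 cells for Tubb2b (1.81, adjusted p = 0.0105) and the upper romidepsin step in CD8 cells for Tubb3 (1.65, adjusted p = 0.0229). In that fit the lower vorinostat step of Tubb2a was 1.09 (adjusted p = 0.0513), the upper one of Tubb6 in CD4 cells -0.55 (adjusted p = 0.23) and the upper one of Tubb5 in CD8 cells -0.37 (adjusted p = 0.072). Each of the 3 calls was lost without at least 1 array. Without replicate 1 of CD4 cells at 10 nM the lower romidepsin step was 1.96 for Tubb2a (adjusted p = 0.066) and 1.69 for Tubb2b (adjusted p = 0.493). The Tubb2b step was also lost without replicate 1 (2.97, adjusted p = 0.0579) or replicate 2 (1.51, adjusted p = 0.344) at 2 nM. It was lost too with quantile normalization (adjusted p = 0.079), equal medians (0.0567), no filter on low values (0.0767) and a fit within each cell type (0.135). The Tubb2a romidepsin step was lost with the mean of all probe sets (1.27, adjusted p = 0.103). The Tubb2a vorinostat step was lost without any 1 of its 4 arrays (1.21 to 1.56, adjusted p = 0.0866 to 0.262). It was also lost with the actin covariate (0.56, adjusted p = 0.35), with the mean of all probe sets (0.72, adjusted p = 0.426) and in a fit within each cell type (adjusted p = 0.0626).

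The stimulated CD8 and CD4 controls differed in the same pair of genes. Tubb2b lay at 9.88 and 10.28 log2 units in CD8 controls, against 6.54 and 6 in CD4 controls, a difference of 3.81 ± 0.6 (adjusted p = 0.000618, 14-fold). Tubb2a lay at 9.72 and 10.82 in CD8 controls, against 7.24 and 7.98 in CD4 controls, a difference of 2.66 ± 0.36 (adjusted p = 0.000158, 6.33-fold). The arrays of the cell types did not overlap for either gene. Of the 8 genes 2 were called, beside 6.22% of all genes tested. With the block 4 were called, beside 37.5% of all genes, adding Tuba1a (0.67, adjusted p = 0.000656) and Tuba4a (0.56, adjusted p = 0.00395), which were higher in CD8 cells. Tubb5 and Tubb6 differed by 0.02 and 0.12, with 95% intervals of 0.41 and 0.61 to either side with the block.

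Whether the drug responses of the cell types differ was tested directly, as the CD8 minus the CD4 difference from control. Without the block no tubulin gene was called at any dose, with the lowest values at an adjusted p of 0.118 for Tubb2a at 30 nM and 0.184 at 10 nM. In that fit limma gave an unadjusted p under 0.05 for 2 genes at 10 nM, 2 at 30 nM, 1 at 2 µM and 2 at 10 µM. The share of all genes under that unadjusted threshold is not given here, so these counts have no background. With the block Tubb2b responded less in CD8 cells at 10 nM (-2.9 ± 0.43, adjusted p = 0.00196), 30 nM (-2.5 ± 0.43, adjusted p = 0.00175), 2 µM (-2.74 ± 0.43, adjusted p = 0.00389) and 10 µM (-2.12 ± 0.43, adjusted p = 0.00619). Tubb2a responded less at 10 nM (-2.05 ± 0.5, adjusted p = 0.0243) and 30 nM (-1.91 ± 0.5, adjusted p = 0.0182), and at 10 µM its difference of -1.51 did not pass (adjusted p = 0.0666). All genes were called at 0.0709% (10 nM), 1% (30 nM), 0.0101% (2 µM) and 0.577% (10 µM) without the block, and at 8.4%, 17.6%, 1.45% and 10.7% with it. For Tubb6 at the top doses the responses differed by 0.55 (30 nM) and 0.15 (10 µM), with 95% intervals of 0.86 to either side with the block. In each of these 6 calls both replicate numbers gave a smaller response in CD8 cells.

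**Figure D4:**
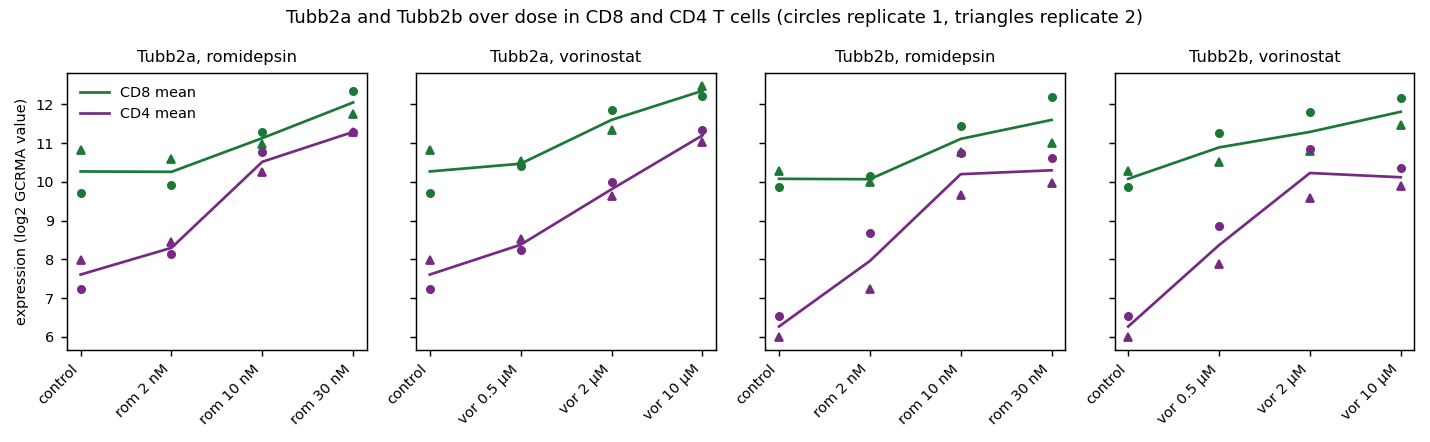
Log2 GCRMA values of Tubb2a and Tubb2b from control to the top dose of romidepsin (rom) and vorinostat (vor), in CD8 cells (green) and CD4 cells (purple), with lines through the group means, circles for replicate 1 and triangles for replicate 2. The cell types stand 2.66 (Tubb2a) and 3.81 (Tubb2b) log2 units apart in the controls and come closer at the middle and top doses.

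The B cell markers moved with these groups, most in CD4 cells. The group mean of Cd79b, a part of the B cell receptor, was 4.31 log2 units in CD4 cells with romidepsin at 30 nM and 4.37 with 10 µM vorinostat, against 8.22 in CD4 controls. In CD8 cells it was 5.25 at 30 nM and 4.4 at 10 µM, against 7.79 in controls. All 4 markers on the array had a lower mean at the top doses than in their control group, and Cd79a had a mean under the detection level in all 14 groups. Their part in the tubulin results was not tested. In such bulk samples a lower number of cells of a type and less RNA per cell cannot be told apart.

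Different probe sets of a gene did not always give the same values. The probe set used for Tubb2a may also read related transcripts by the array maker's design. A second one lay between 2.35 and 4.43 log2 units, was over the detection level in 2 arrays and was called at no top dose without the block. It differed from control by 0.57 (adjusted p = 0.72) and 0.26 (adjusted p = 0.943) in CD4 cells and by 0.83 (adjusted p = 0.645) and 0.78 (adjusted p = 0.559) in CD8 cells, romidepsin first. With the block it passed at 30 nM in CD4 cells (adjusted p = 0.0257) and at both top doses in CD8 cells (adjusted p = 0.00385 and 0.00444). This probe set was tested only because of its 2 arrays over the detection level and otherwise lay under that level. Its calls are therefore no independent support. A second Tubb5 probe set differed from control by -0.78 and -0.76 at the top doses in CD4 cells and by -0.6 and -1.17 in CD8 cells, romidepsin first, in the direction of the first. The second Tuba4a probe set lay between 10.35 and 11.6 and was called at no top dose in either fit. The other probe sets of Tuba4a, Tubb6 and Tuba8 were never over the detection level. Tubb2b and Tubb3 have 1 probe set naming them alone, and the Tuba1a probe set may read other alpha-tubulin transcripts.

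Tubb2a and Tubb2b are neighbours in the RefSeq gene table, with no protein-coding gene between them. The 3 protein-coding genes on either side were looked up after the tubulin values had been seen. Nqo2, Bphl and Psmg4 were tested, Slc22a23 and Pxdc1 were never over the detection level, and Ripk1 was not analysed here. None of the 3 tested passed the test at a top dose without the block. Nqo2, a quinone reductase, differed by 1.31 at 30 nM (adjusted p = 0.404, and 0.00436 with the block) and 1.11 at 10 µM (adjusted p = 0.519, and 0.0124 with the block) in CD4 cells and by -0.1 and -0.22 in CD8 cells. Bphl, a hydrolase, differed by -0.45 and -1.22 in CD4 cells and by 0.12 and -0.61 in CD8 cells, and with the block passed at 10 µM in both (adjusted p = 9.72e-05 and 0.0149). Psmg4, a proteasome assembly chaperone, differed by -0.08 to -0.42 over the 4 comparisons and passed with the block in CD8 cells at 10 µM (-0.42, adjusted p = 0.00646).

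Across the 14 group means, Tubb2a and Tubb2b had a Pearson correlation of 0.94, and so had Tubb5 and Tubb6. Tuba1a and Tuba4a correlated at 0.9, Tubb2a and Tubb5 at -0.7 and Tubb2a and Tubb6 at -0.64. These are descriptions over 14 means that share arrays between genes. Over all tested genes outside the members, the 99th percentile of r was 0.947 with Tubb2a and 0.894 with Tubb2b. It was 0.955 with Tubb5, 0.959 with Tubb6, 0.886 with Tubb3, 0.916 with Tuba1a, 0.925 with Tuba4a and 0.828 with Tuba8. The positive pairs above lay over it only for Tubb2b. All group means of Tubb3 and Tuba8 lay under the detection level. The Tubb2a probe set may also read related transcripts, and the part of that in its correlation with Tubb2b was not tested. Among all tested genes outside the members, those most like Tubb2a were Anapc10 (0.992), Ankrd12 (0.989) and Kifap3 (0.988). Those most like Tubb2b were 1500009L16Rik (0.976), Tfb1m (0.973) and Fam126a (0.967), and those most like Tubb3 were Mcam (0.968), 6330403K07Rik (0.964) and Nupr1l (0.961). Tubb5 was most like Tlk2 (0.985), Gimap1 (0.984) and Marveld1 (0.982), and Tubb6 most like Mlec (0.99), Map2k5 (0.986) and Polr2m (0.984). Tuba1a was most like Osgin2 (0.981), Svbp (0.975) and Ptpn12 (0.974), Tuba4a most like A930006K02Rik (0.981), Samd9l (0.979) and Eomes (0.977), and Tuba8 most like C430002N11Rik (0.921), Cxcr3 (0.912) and Gm11110 (0.911).

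Other genes of tubulin and microtubules were read from 5 lists. Of 11 further tubulin genes 3 were tested and none was called at a top dose without the block. With it Tubg1, the gamma-tubulin of the centrosome, was higher at all 4 top doses (0.5 to 0.91 log2 units) and Tubb4b, another beta-tubulin, and Tube1, the epsilon-tubulin of centrioles, were lower (-0.74 to -1.15 and -0.67 to -0.97). The block called 63.7% and 61.2% of all genes tested in CD4 cells and 52.4% and 64% in CD8 cells, romidepsin first. Values with the actin covariate are not given for these 3 genes. All 22 genes for tubulin folding were tested. In CD4 cells 6 rose and 1 fell with romidepsin at 30 nM and 5 rose with vorinostat at 10 µM, and in CD8 cells 1 rose and 1 fell and then 2 rose and 2 fell. The shares of all genes tested that rose and fell were 13.3% and 7.91%, then 10.9% and 7.1%, in CD4 cells. In CD8 cells they were 7.89% and 2.93%, then 12.1% and 8.5%. Pfdn6, a subunit of the prefoldin chaperone, rose in all 4, by 2.18 and 2.14 in CD4 cells and by 1.06 and 1.82 in CD8 cells, romidepsin first. Pfdn5, another prefoldin subunit, rose at 10 µM in CD4 cells (0.72, adjusted p = 0.0165) and CD8 cells (0.73, adjusted p = 0.014). Cct3 and Cct5, subunits of the chaperonin that folds tubulin and actin, fell in CD8 cells at 10 µM (-0.73, adjusted p = 0.00694, and -0.5, adjusted p = 0.0351), and Cct3 also at 30 nM (-0.56, adjusted p = 0.0499). Cct8 of the same complex rose in CD4 cells at 30 nM (0.8, adjusted p = 0.0129) and Arl2, a small GTPase of the tubulin cofactor pathway, fell there (-0.64, adjusted p = 0.0449).

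Of 13 tested enzymes that modify tubulin, 3 rose in CD4 cells with either drug at the top dose without the block. In CD8 cells 2 rose with romidepsin and 4 with vorinostat, and none fell in either cell type. Of all genes tested, 13.3% and 10.9% rose and 7.91% and 7.1% fell in CD4 cells in that fit, romidepsin first. In CD8 cells 7.89% and 12.1% rose and 2.93% and 8.5% fell. With the block 7 and 5 rose in CD4 cells and 5 and 7 in CD8 cells, romidepsin first, and 2 fell in each comparison. Among all genes tested, the block gave 35.4% and 31.9% higher and 28.3% and 29.3% lower in CD4 cells. In CD8 cells it gave 27.8% and 31.6% higher and 24.6% and 32.4% lower. Hdac6, the deacetylase of alpha-tubulin and one of the enzymes vorinostat inhibits, rose in all 4. It lay at 8.64 in both CD4 arrays at 30 nM and 8.53 in both at 10 µM, against 5.98 and 7.51 in CD4 controls, with differences of 1.89 ± 0.51 (adjusted p = 0.0139) and 1.78 ± 0.51 (adjusted p = 0.0219). In CD8 cells Hdac6 lay at 8.15 and 8.07 at 30 nM and 8.74 and 8.72 at 10 µM, against 5.84 and 6.82 in controls, with differences of 1.78 (adjusted p = 0.0329) and 2.4 (adjusted p = 0.00317). Atat1, the acetyltransferase of alpha-tubulin, rose by 2.73 and 2.61 in CD4 cells and by 2.68 in CD8 cells at 10 µM. Ttll1, a glutamylase of tubulin, rose in all 4, by 2.85 and 2.5 in CD4 cells and 2.22 and 2.41 in CD8 cells.

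Of 23 tested microtubule-associated proteins, 5, 3, 4 and 5 rose at the top doses (CD4 with romidepsin and vorinostat, then CD8) and none fell without the block. Of all genes tested, 13.3%, 10.9%, 7.89% and 12.1% rose and 7.91%, 7.1%, 2.93% and 8.5% fell in that fit. With the block 9, 10, 8 and 9 rose and 7, 7, 7 and 8 fell. The rises were 34.8% to 43.5% of the list, beside 27.8% to 35.4% of all genes tested. The falls were 30.4% to 34.8% of the list, beside 24.6% to 32.4% of all genes tested. Mapre2, a plus-end binding protein, rose in all 4, by 1.51 and 1.18 in CD4 cells and by 2.09 and 2.07 in CD8 cells. Katna1, a subunit of the severing enzyme katanin, also rose in all 4, by 1.25 and 1.17 in CD4 cells and by 0.94 and 1.36 in CD8 cells. Mapt, the neuronal protein tau, was under the detection level in the controls. Measured from that level, it rose at least 3-fold in CD4 cells at 30 nM (adjusted p = 0.029) and at least 2.62-fold in CD8 cells at 10 µM (adjusted p = 0.0351). It also lay over that level in CD4 cells at 10 µM (5.76 and 5.28) and in CD8 cells at 30 nM (5.34 and 5.26). Mapt entered the test only through drug arrays, so its calls are no independent support. Stmn3, a destabiliser of microtubules, had a mean under the detection level in CD8 controls. There it rose at least 1.24-fold at 30 nM (adjusted p = 0.0487) and at least 2.6-fold at 10 µM (adjusted p = 0.000831). Its calls may carry the same limit.

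Of 21 tested motor genes, 5, 4, 3 and 6 rose and 1, 1, 2 and 2 fell in the same order of groups. Kif5c, a heavy chain of conventional kinesin known from neurons, lay at 7.9 and 7.85 log2 units at 30 nM and 7.82 and 7.7 at 10 µM in CD4 cells, against 2.34 and 3.23 in CD4 controls. In CD8 cells it lay at 7.87 and 7.81 at 30 nM and 7.73 and 7.9 at 10 µM, against 3.96 and 4.25 in controls. The control arrays were all under the detection level, so Kif5c was at least 12.2-fold and 11.2-fold higher in CD4 cells and at least 11.8-fold and 11.7-fold in CD8 cells. Only drug arrays put Kif5c over the filter, so its calls are no independent support. Kif3a, a motor of transport in cilia and neurons, rose in CD8 cells by 2.16 and 2.5. Dctn1, the large dynactin subunit, rose in CD4 cells by 1.36 and 1.18. Both also lay higher in the other cell type. In CD4 cells Kif3a lay at 10.69 and 10.57 at 30 nM and 10.76 and 10.32 at 10 µM, against 9.89 and 9.11 in controls. In CD8 cells Dctn1 lay at 9.25 and 9.56 at 30 nM and 9.65 and 10.12 at 10 µM, against 8.11 and 8.75 in controls. The mitotic kinesin Kif11 fell in all 4, with differences of -0.74 and -0.96 in CD4 cells and -1.12 and -1.42 in CD8 cells. Kif2c, which takes microtubules apart at kinetochores, fell in CD8 cells, with differences of -0.69 and -0.66. Of all genes tested, 13.3% rose and 7.91% fell in CD4 cells at 30 nM, 10.9% and 7.1% at 10 µM, 7.89% and 2.93% in CD8 cells at 30 nM and 12.1% and 8.5% at 10 µM. List medians at the top doses were -0.67 to -0.91 log2 units for the 3 further tubulin genes, 0.14 to 0.18 log2 units for folding, 0.19 to 0.6 for modification, 0.15 to 0.23 for associated proteins and 0.17 to 0.28 for motors, beside 0 to 0.07 over all genes.

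**Figure D5:**
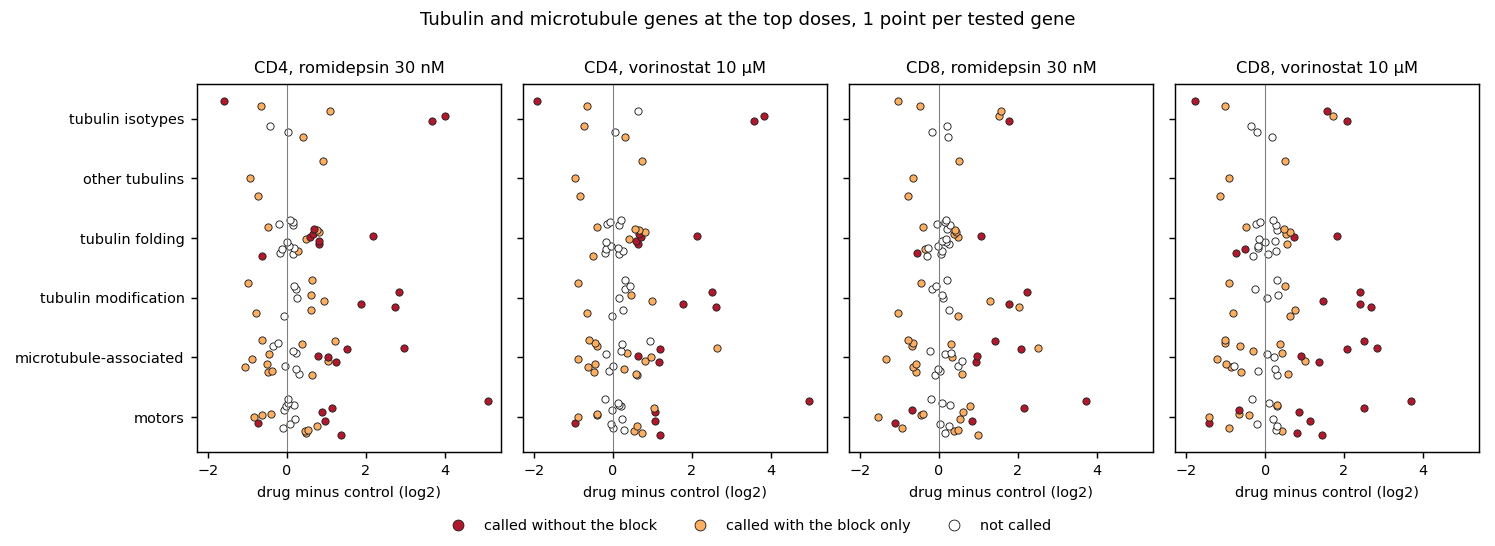
Difference from control (drug minus control, log2) at the top doses for each tested gene of the tubulin isotypes and the 5 other lists, 1 point per gene. Red points were called without the block, orange points only with it and white points in neither fit. Kif5c is the point furthest to the right, at 3.71 to 5.09, and Tubb2a and Tubb2b are the rightmost tubulin isotypes in each panel except that of CD8 cells at 30 nM, where Tubb3 lies beside them.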

How the data were processed

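Expression was measured on 28 Affymetrix Mouse430_2 arrays. The authors made the deposited log2 values of 45101 probe sets with GCRMA, per the submitters' processing notes. These give no version or settings, and the log base was read from the values. GCRMA corrects background by probe composition and compresses dim probe sets towards a floor, which was 2.2684 in replicate 1 and 2.2545 in replicate 2.

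Probe sets were named through the platform annotation, with symbols updated through the RefSeq gene table: 34958 name 1 gene, 932 several and 9211 none. Among those naming 1 gene, the one with the highest mean over all arrays was used for each gene. The detection level lies 2 log2 units over the mode (2.27), and a gene over it in at least 2 arrays was tested. limma 3.58.1 in R 4.3.3 (lmFit and eBayes) estimated the 14 group means together, leaving 14 residual degrees of freedom. The 27 contrasts were adjusted with the Benjamini-Hochberg method within each over 9871 genes, with a threshold of 0.05; the drug groups of a cell type share their control arrays. The code was tested on simulated data.

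Replicate numbers come from the labels. Deviations from the group means of replicate 1 arrays correlated at 0.762 or more between groups of a cell type (42 pairs, median 0.868) and at 0.722 or more across cell types (49 pairs), so the numbers were taken as pairing the arrays, and a blocked fit, with a term for the number in either cell type and 12 residual degrees of freedom left, is given where it changes a call. Alternatives were the actin 3′ minus 5′ difference as a covariate, other probe sets, scalings and filters, an intensity trend, separate fits per cell type and leaving out each array. The members and lists were chosen with earlier results of these data known. All members are named; of each other list the 2 largest called rises and falls at each top dose are named, and Hdac6 always. Likeness is Pearson's r over 14 group means. The number of arrays limits the precision.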

Additional observations from a re-analysis of the deposited data

Results flagged for a closer look

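The responses of the cell types differed for 2 genes by the test of the difference itself, in the blocked fit. For Tubb2b the CD8 minus CD4 response was -2.9 ± 0.43 log2 units (SE, adjusted p = 0.00196) at 10 nM romidepsin, -2.5 ± 0.43 (adjusted p = 0.00175) at 30 nM, -2.74 ± 0.43 (adjusted p = 0.00389) at 2 µM vorinostat and -2.12 ± 0.43 (adjusted p = 0.00619) at 10 µM. For Tubb2a it was -2.05 ± 0.5 (adjusted p = 0.0243) at 10 nM and -1.91 ± 0.5 (adjusted p = 0.0182) at 30 nM. None of these 6 passed without the block, where their adjusted p-values were 0.118 to 0.795. No group holds enough arrays for a test of single outlying arrays.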

How the results depend on the processing

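No call of a tubulin gene changed direction under any alternative run. Of 2902 values of single genes under the alternatives, 2768 kept their side of the threshold, 64 became calls, 51 lost a call, and 19 moved without being called. The replicate block gave 1 (CD4, 2 nM), 6 (CD4, 30 nM), 1 (CD4, 0.5 µM), 6 (CD4, 10 µM), 1 (CD8, 10 nM), 5 (CD8, 30 nM), 3 (CD8, 2 µM) and 5 (CD8, 10 µM) called tubulin genes, 4 between controls, 12 over the dose steps and 6 over the responses, and it changed no other count by over 1.5 times and ended no call. With the actin 3′ minus 5′ difference beside the block the counts were 1 (CD4, 2 nM), 2 (CD4, 30 nM), 1 (CD4, 0.5 µM), 2 (CD4, 10 µM), 1 (CD8, 10 nM), 3 (CD8, 30 nM), 1 (CD8, 2 µM), 2 (CD8, 10 µM), 4 (controls), 4 (steps) and 7 (responses). The mean of all probe sets of a gene gave 1 (CD4, 2 µM), 0 (CD8, 30 nM) and 1 (steps), quantile normalization 1 and an intensity trend 1 (both CD8, 2 µM), and a fit within each cell type 1 (steps). With the second probe set of Tubb2a, no call of Tubb2a against control or between the controls remained. Leaving out 1 array at a time gave 2 to 3 calls in CD4 cells at 30 nM and at 10 µM, 0 to 2 at 2 µM, 0 to 2 in CD8 cells at 30 nM, 0 to 1 at 2 µM, 1 to 3 at 10 µM, 1 to 3 over the steps and 0 to 1 over the responses. Part of the replicate difference enters those fits, and where 1 array stood for a group it was assumed to vary like the others. Shares of all genes are not given for the alternatives other than the block, nor for the blocked steps. The causes were not tested. Values near the floor of the arrays limit Tubb3, Tuba8 and the second probe set of Tubb2a.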
